A study of Homo sapiens with 17 samples.

Results

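Alu monomers are the short relatives of the Alu element, and their RNA was followed here through 17 RIP-seq and RNA-seq libraries of N2102Ep, an established human embryonal carcinoma cell line. RIP-seq (RNA immunoprecipitation followed by sequencing) pulls a protein down and counts the RNA that comes with it. The monomers were chosen by name from a table with 1 row per repeat copy: every row of family Alu whose subfamily starts with FLAM, FRAM or FAM. The rule found 39643 copies of the 3594049 in the table, namely 19205 FLAM_C, 11241 FLAM_A, 5822 FRAM and 3375 FAM. The table holds 1090532 Alu copies in all, most of them dimers (262295 AluJ, 649934 AluS and 135615 AluY).

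The study set RNA bound to the 2 proteins of the LINE-1 retrotransposon beside control RNA in 4 groups. They were 4 libraries of ORF1p RIP, 4 of ORF2p RIP, 3 of mock IP, whose descriptions carry the term mIgG, and 6 of total RNA that went through no pull-down. No drug, knockdown or time series separated the groups, and all 17 libraries came from N2102Ep. The labels name clone 2/A6 for the total RNA, mock IP and ORF2p RIP libraries but not for the ORF1p RIP libraries, so for ORF1p RIP the clone and the pull-down cannot be told apart. The descriptions put total RNA replicates 1 and 2 in a series marked b and replicates 3 to 6 in a series marked bl, and nothing in the labels says what these marks mean. Nothing in the labels says that replicates were separate cultures, so a p-value here covers no more than the spread among libraries, and that spread may be technical. The table holds repeats and no genes, so the markers of the cell line could not be checked. In bulk RNA, fewer cells with a transcript and less of it per cell cannot be told apart.

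Alu elements descend from the gene of 7SL RNA, the RNA of the signal recognition particle. The fossil Alu monomer (FAM) is the oldest form, the free left monomer (FLAM) and the free right monomer (FRAM) followed, and a left and a right monomer joined head to tail gave the dimeric Alu, of which AluJ is the oldest group and AluY the youngest. Alu elements encode no protein and move with the machinery of LINE-1. That machinery is ORF1p, an RNA-binding protein that coats LINE-1 RNA, and ORF2p, the endonuclease and reverse transcriptase. Most monomer copies are old, lie inside other transcription units, and can be read out as part of a longer transcript.

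The 4 subfamilies are shown here by pieces of single copies, so that a reader can see what a left, a right and a fossil monomer look like. The sequences are from RefSeq (GRCh38.p14), where 17 of 35116 promoter windows held at least 1 base of a monomer copy. Monomer bases are in capitals and flanking bases in lower case, each printed 5′ to 3′ on the strand of the monomer. These copies had between 1 and 8 estimated reads in all libraries together, and none of them decides a result. The FAM piece is the first 46 of 158 bases of the copy at the start of FAM107B (chr10:14572570-14572625, plus strand).
FAM: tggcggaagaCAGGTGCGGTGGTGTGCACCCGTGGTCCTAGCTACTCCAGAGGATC
The FLAM_C piece (bases 73 to 156 of the copy at FAM223B, chrX:154633133-154633226, plus strand) shows the A-rich end of a left monomer.
FLAM_C: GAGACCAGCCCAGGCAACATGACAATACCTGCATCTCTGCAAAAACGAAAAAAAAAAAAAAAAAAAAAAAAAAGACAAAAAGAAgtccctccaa
The FRAM piece (bases 82 to 151 of the copy at LOC124906022, chr2:70095491-70095570, minus strand) shows the end of a right monomer.
FRAM: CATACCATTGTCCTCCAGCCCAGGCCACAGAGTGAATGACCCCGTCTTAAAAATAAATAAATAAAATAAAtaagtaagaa
The FLAM_A piece is the stretch of a copy whose reverse complement RefSeq lists as mature miRNA MIR1303 (chr5:154685827-154685848, minus strand).
FLAM_A: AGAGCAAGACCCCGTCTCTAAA
Those among the most-read copies that are named further on are AHCYL2, FIRRE, HELLS, P3H2, PDE3A, PRKX, RBM41, SNHG1 and YWHAB by the gene they lie in.

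The copies were short and old. Their median length was 123 bases for FLAM_A, 131 for FLAM_C, 155 for FRAM and 164 for FAM, and their median divergence from the consensus, as the table gives it, was 18.6%, 15.9%, 18.5% and 18.7%. Of the 39643 copies, 28797 (72.6%) lay in at least 1 gene span of RefSeq; the tables used here give spans and no exons, so exonic and intronic copies cannot be told apart. Of the copies in 1 span with a known strand, 10778 lay opposite to the gene and 10096 on its strand (51.6% opposite). A dimeric Alu lay within 50 bases of 9663 copies (24.4%). None of the 32 gene spans of BCYRN1, the SNAR genes and RN7SL1 to RN7SL3, which encode RNAs of the same 7SL origin, overlapped a monomer copy.

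The libraries held 7693841 to 19670774 estimated reads on repeats, of which 35515 to 148316 fell on Alu monomers. In every library FLAM_C took the most monomer reads. The monomers' share of repeat reads was 0.836% ± 0.134 in ORF1p RIP (SD, n = 4), 0.467% ± 0.0374 in ORF2p RIP (n = 4), 0.603% ± 0.0240 in mock IP (n = 3) and 0.505% ± 0.190 in total RNA (n = 6). The total RNA libraries were split: the 2 of series b had 0.754% and 0.746%, and the 4 of series bl had 0.36% to 0.397%. Reads per copy were few. Of the 39643 copies, 7651 (19.3%) were at 0 in all 17 libraries, and 2657 had 100 or more reads in all.

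At the level of whole subfamilies, Alu monomer RNA had its highest mean in ORF1p RIP. Levels are given as CPM, estimated reads per 1000000 reads on repeats after TMM scaling, and as mean ± SD over libraries. FLAM_C, the larger subfamily of left monomers, was at 4042, 3861, 3438 and 3621 CPM in the ORF1p RIP libraries, at 2787, 2248, 2434 and 2606 in ORF2p RIP and at 2631, 2293 and 2549.8 in mock IP. Its total RNA libraries ran from 2667 to 2717 CPM in series b and from 1365 to 1436 in series bl. All 4 ORF1p RIP libraries lay above every other library, while ORF2p RIP and mock IP overlapped.

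FLAM_A, the older left monomer, was at 2740.1, 2624, 2390.3 and 2469 CPM in ORF1p RIP, at 1751, 1546, 1586 and 1641 in ORF2p RIP and at 1786, 1646 and 1723 in mock IP. In total RNA it was at 1761 and 1825 CPM in series b and at 1075 to 1162 in series bl. ORF1p RIP lay apart and the other groups overlapped.

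FRAM, the right monomer, was at 1207, 1147, 996 and 1073 CPM in ORF1p RIP, at 992, 778, 794 and 869.6 in ORF2p RIP and at 947, 813 and 917 in mock IP. Its total RNA libraries were at 969 and 999 CPM in series b and 519 to 582 in series bl. FRAM had the smallest gap between ORF1p RIP and the rest, and its ORF1p RIP libraries overlapped those of total RNA.

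FAM, the fossil monomer, was at 1164, 1072, 1100.3 and 1093 CPM in ORF1p RIP, at 630.1, 494, 533 and 587 in ORF2p RIP and at 734, 663 and 723 in mock IP. In total RNA it was at 748 and 769 CPM in series b and 440.3 to 479 in series bl. FAM was the only one of the 4 whose ORF2p RIP libraries all lay below all mock IP libraries.

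Per length the order of the subfamilies was different. Divided by the summed length of all copies in kb, the level of FAM in ORF1p RIP was 2.13 ± 0.0757 CPM per kb, above FLAM_A (1.94 ± 0.119), FLAM_C (1.55 ± 0.110) and FRAM (1.33 ± 0.109). In mock IP FAM (1.36 ± 0.0726) and FLAM_A (1.31 ± 0.0531) lay within their spread of each other, as did FRAM (1.07 ± 0.0848) and FLAM_C (1.03 ± 0.0731). In ORF2p RIP FAM (1.08 ± 0.115), FLAM_C (1.04 ± 0.0956) and FRAM (1.03 ± 0.117) lay close together under FLAM_A (1.24 ± 0.0675).

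**Figure D1:**
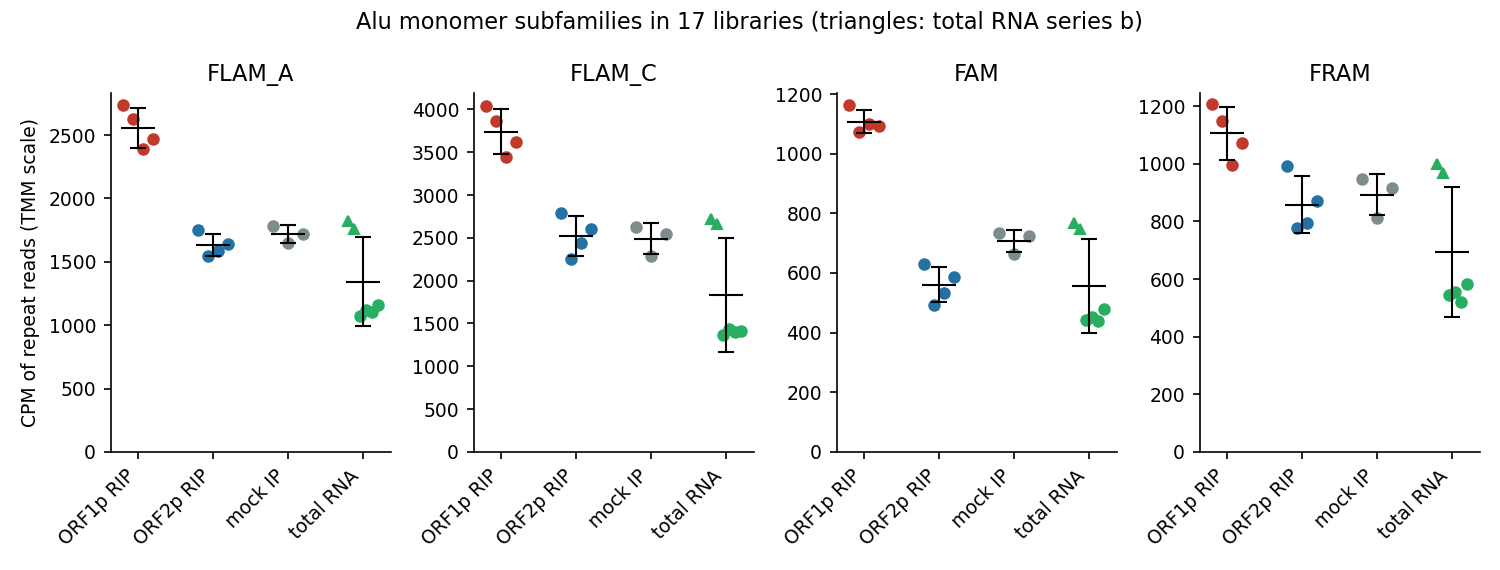
Level of each Alu monomer subfamily in CPM of repeat reads (vertical axis, from 0) in each library of the 4 groups, with the mean and SD as black bars and total RNA series b as triangles. The 4 ORF1p RIP libraries lie above all mock IP and ORF2p RIP libraries in each panel, and the triangles lie above the other total RNA libraries.

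Compared with mock IP, which gives the background of a pull-down, the left monomers and FAM were higher in ORF1p RIP. The log2 change was 0.57 ± 0.17 (SE) for FLAM_A (edgeR quasi-likelihood test, adjusted p = 0.0109), 0.59 ± 0.23 for FLAM_C (adjusted p = 0.0454) and 0.65 ± 0.19 for FAM (adjusted p = 0.00856). FRAM was at 0.31 ± 0.21 (adjusted p = 0.239) and did not pass, although all its ORF1p RIP libraries were above all mock IP libraries. So 3 of 4 passed an adjusted p of 0.05, as 26% of the 1074 subfamilies tested did in the higher direction. None of the 4 also reached 2-fold by edgeR or by DESeq2, where the background called was 7.36% higher and 8.75% lower. The median change was 0.58 for the 4 monomers, 0.39 for 4 AluJ, 0.55 for 17 AluS, 0.52 for 25 AluY and 0.02 for all subfamilies. None of the AluJ and AluS subfamilies and 7 of the 25 AluY passed in that direction, and no difference between monomers and dimers was tested in this fit. The call for FLAM_C was lost on leaving out any 1 of 12 libraries (each of the ORF1p RIP, ORF2p RIP and mock IP libraries, or total RNA replicate 3), with a log2 change of 0.53 to 0.63 and an adjusted p up to 0.132. With library totals in place of TMM scaling FAM alone passed, and FLAM_A was at 0.49 (adjusted p = 0.0719). Without its most-read copy, FAM was at 0.42 (adjusted p = 0.0543).

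Between ORF2p RIP and mock IP no monomer subfamily passed. The log2 change was -0.08 ± 0.17 for FLAM_A, 0.02 ± 0.23 for FLAM_C, -0.06 ± 0.21 for FRAM and -0.33 ± 0.18 for FAM, with edgeR adjusted p-values of 0.771, 0.962, 0.859 and 0.177. None of the 4 had an unadjusted p under 0.05, none passed in DESeq2, and the background called was 6.7% higher and 1.49% lower. FAM fell in 2 other settings. Scaled by library totals in place of TMM, which lowers the median of all subfamilies by 0.34 on the log2 scale, FAM was at -0.64 (edgeR adjusted p = 0.0236), and the sign of FLAM_C turned to -0.29 with no pass. Fitted on these 2 groups alone, FAM was at -0.34 (adjusted p = 0.00148).

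Set against each other, the pull-downs differed in FAM and in both left monomers. ORF2p RIP was lower than ORF1p RIP, with a log2 change of -0.98 ± 0.17 for FAM (edgeR adjusted p = 0.000155), -0.65 ± 0.16 for FLAM_A (adjusted p = 0.00245) and -0.57 ± 0.21 for FLAM_C (adjusted p = 0.0322). FRAM was at -0.37 ± 0.20 (adjusted p = 0.126). So 3 of 4 passed as lower by adjusted p alone, as 28.3% of the 1074 subfamilies tested did. The libraries of the 2 groups overlapped in none of the 4 subfamilies. None of the 4 was called at 2-fold by edgeR or DESeq2, against a background of 12.4% higher and 6.52% lower; FAM, at 1107 against 561 CPM, came closest. This comparison and the one with mock IP share the ORF1p RIP libraries. AluJ had a median of -0.44, AluS -0.33, AluY -0.19 and all subfamilies -0.04. The call for FLAM_C was lost on leaving out replicate 1, 2 or 4 of ORF1p RIP, or replicate 2, 3 or 4 of ORF2p RIP, with changes of -0.52 to -0.59. It was also lost without the most-read copy, at -0.39 (adjusted p = 0.11), and over copies outside gene spans (adjusted p = 0.0602). FRAM passed with library totals, at -0.60 (adjusted p = 0.0381), and in the fit of these 2 groups alone (adjusted p = 0.00569).

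Against total RNA, ORF1p RIP was higher in all 4 subfamilies: 1.03 ± 0.19 for FLAM_C, 0.995 ± 0.15 for FAM, 0.93 ± 0.14 for FLAM_A and 0.67 ± 0.18 for FRAM on the log2 scale. The edgeR adjusted p-values were 0.000241, 4.07e-05, 3.65e-05 and 0.00389. By adjusted p alone, 29.1% of the 1074 subfamilies tested passed as higher here. FLAM_C alone passed 2-fold, so 1 of 4 was called higher against a background of 9.12% higher and 8.29% lower. All 4 AluJ and all 17 AluS subfamilies passed too, with medians of 0.91 and 1.08. The size depended on the total RNA series. Against series b alone FLAM_C was at 0.42, FAM at 0.48, FLAM_A at 0.45 and FRAM, which did not pass, at 0.11. Against series bl alone they were at 1.39, 1.26, 1.17 and 0.99. FLAM_C fell short of 2-fold against series b, with library totals (0.81), without its most-read copy (0.90), and without ORF1p RIP replicate 1 or any 1 of total RNA replicates 3 to 6.

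ORF2p RIP and mock IP did not differ from total RNA in any monomer subfamily by edgeR at an adjusted p of 0.05, with all 6 total RNA libraries. For ORF2p RIP the log2 changes were 0.46 ± 0.19 for FLAM_C, 0.31 ± 0.18 for FRAM, 0.28 ± 0.14 for FLAM_A and 0.01 ± 0.16 for FAM (adjusted p = 0.0728, 0.185, 0.131 and 0.948). For mock IP they were 0.44 ± 0.21, 0.36 ± 0.19, 0.36 ± 0.16 and 0.35 ± 0.17 in the same order (adjusted p = 0.175, 0.203, 0.158 and 0.176). In each comparison 1 of 4 had an unadjusted p under 0.05 and none passed in DESeq2. The background called was 5.12% higher and 1.3% lower for ORF2p RIP, and 0.745% higher and 0% lower for mock IP. Both results turned on the series of total RNA. With series bl alone all 4 subfamilies were higher in ORF2p RIP and all 4 in mock IP at an adjusted p of 0.05, and with series b alone none was higher and FAM was lower in ORF2p RIP, at -0.48 (adjusted p = 0.000225). Leaving out total RNA replicate 1 or 2 alone gave 3 subfamilies higher in ORF2p RIP and 4 in mock IP. With library totals the sign of FLAM_A and FRAM in ORF2p RIP turned to -0.16 and -0.14, and FAM was at -0.43.

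**Figure D2:**
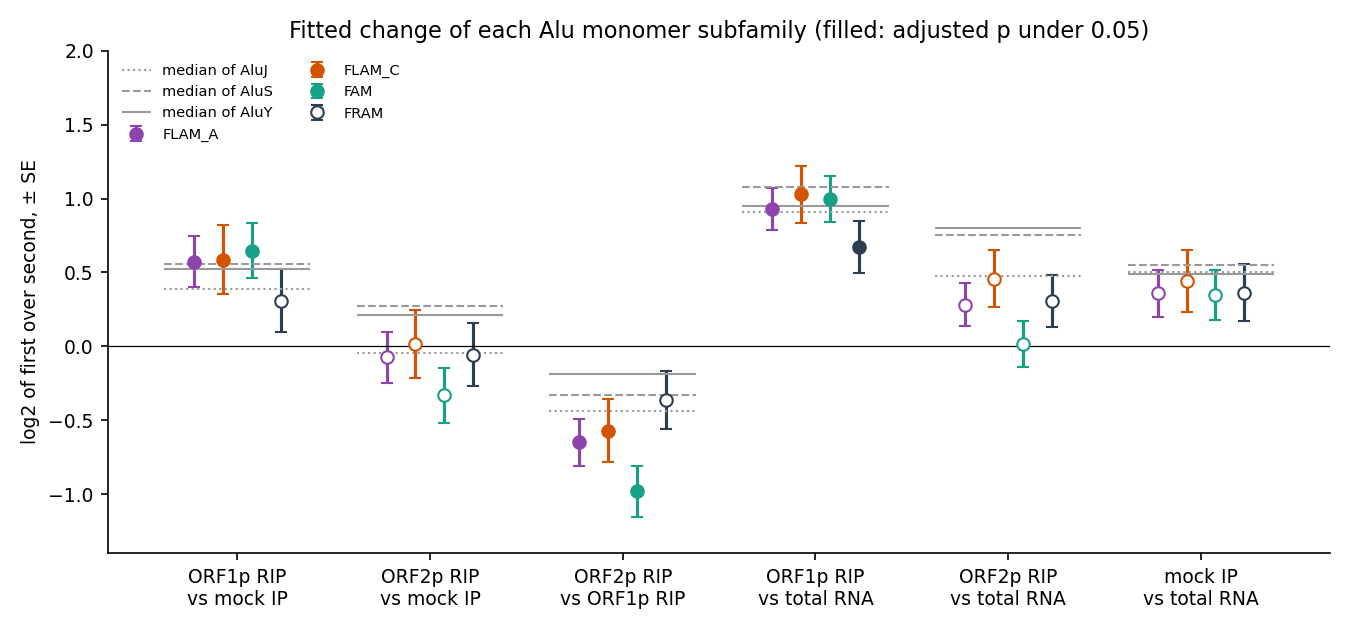
Log2 change of the 4 monomer subfamilies in the 6 comparisons, with SE from the edgeR fit as bars, beside the medians of AluJ, AluS and AluY. The changes between ORF2p RIP and mock IP lie between -0.33 and 0.02. All 4 monomers lie above the line of no change where ORF1p RIP is compared with mock IP.

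A ratio within a library needs no scaling between libraries. The left monomer FLAM_C relative to the right monomer FRAM was higher in both pull-downs and in mock IP than in total RNA. For FLAM_A, the other left monomer, the ratio to FRAM was not tested. Mean shares of monomer reads for FLAM_A and FRAM were 30.04% and 12.98% in ORF1p RIP and 29.34% and 15.39% in ORF2p RIP. They were 29.61% and 15.35% in mock IP and 30.7% and 15.67% in total RNA. FLAM_C reads over FRAM reads were at 335, 337, 345 and 337% in the ORF1p RIP libraries, 281, 289, 306 and 299.6% in ORF2p RIP and 278, 282 and 278% in mock IP. Total RNA ran from 243% to 275% with a mean of 262% ± 12.8 (SD, n = 6), and its series b libraries were at 272 and 275%. ORF1p RIP lay above all others, and only ORF2p RIP and mock IP overlapped. The log2 difference was 0.37 (exact p = 0.00952, adjusted p = 0.0286) for ORF1p RIP against total RNA, by a two-sided permutation test with adjustment over 6 comparisons. It was 0.17 (exact p = 0.00952, adjusted p = 0.0286) for ORF2p RIP against total RNA and -0.20 (exact p = 0.0286, adjusted p = 0.0429) for ORF2p RIP against ORF1p RIP. Mock IP against total RNA gave 0.10 (exact p = 0.0238, adjusted p = 0.0429). ORF1p RIP against mock IP gave 0.28 (exact p = 0.0571, adjusted p = 0.0686), where 4 against 3 libraries cannot go below 0.0571, and ORF2p RIP against mock IP gave 0.07 (exact p = 0.114, adjusted p = 0.114). The ratio depended on the most-read copies: with the most-read copy of each subfamily left out, the difference of ORF1p RIP from total RNA was 0.14 and none of the 6 comparisons passed. With 1 library left out in turn, 2 or 3 of the comparisons passed. Over copies outside gene spans alone, ORF2p RIP against total RNA turned to -0.36 (exact permutation test, adjusted p = 0.0286).

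Relative to AluJ, the oldest dimers, FAM was the monomer that varied most. FAM reads were 1.98% ± 0.0724 of AluJ reads in ORF1p RIP (SD, n = 4), 1.34% ± 0.0696 in ORF2p RIP (n = 4), 1.68% ± 0.0936 in mock IP (n = 3) and 1.99% ± 0.292 in total RNA (n = 6). ORF2p RIP against ORF1p RIP gave a log2 difference of -0.56 (exact p = 0.0286, adjusted p = 0.152), with no overlap of the libraries, and ORF2p RIP against total RNA gave -0.56 (exact p = 0.00952, adjusted p = 0.114). FRAM over AluJ in ORF1p RIP against total RNA gave -0.31 (exact p = 0.00952, adjusted p = 0.114). The total RNA series differed here too. FAM over AluJ was at 1.62% and 1.64% in series b and at 2.09% to 2.32% in series bl. FRAM over AluJ was at 2.10% and 2.12% in series b and at 2.51% to 2.81% in series bl, against 1.97% ± 0.0929 in ORF1p RIP. These ratios were not tested against each series alone. Of the 24 exact tests of a monomer over AluJ, 5 had an unadjusted p under 0.05 and none passed after adjustment over the 24, where the lowest was 0.114. The size of the groups bounds these exact tests, since 4 against 4 libraries cannot go below p = 0.0286.

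**Figure D3:**
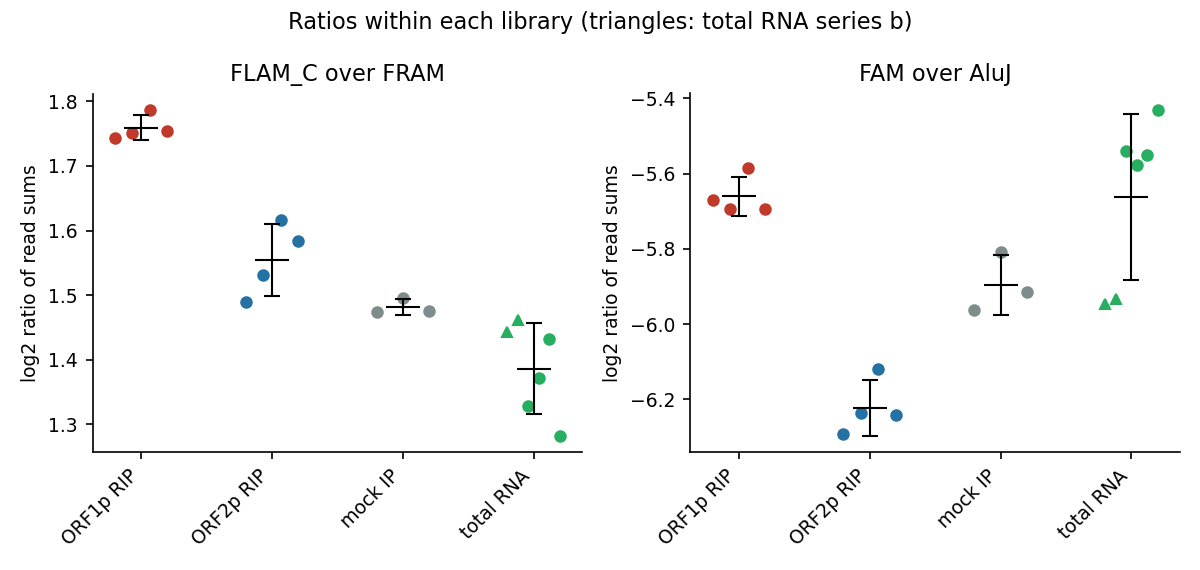
Log2 ratio of FLAM_C to FRAM reads (left) and of FAM to AluJ reads (right) in each library of the 4 groups. Black bars give the mean and SD, and triangles mark total RNA series b. FLAM_C over FRAM is highest in the 4 ORF1p RIP libraries (log2 of 1.74 to 1.79), and FAM over AluJ is lowest in ORF2p RIP (mean log2 of -6.22).

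A small number of copies carried much of the monomer signal in the pull-downs. The 100 most-read copies held 26.8% of monomer reads in ORF1p RIP and 28.5% in ORF2p RIP, against 12.3% in mock IP and 13.4% in total RNA. It took 666 copies to reach 50% of the reads in ORF1p RIP and 677 in ORF2p RIP, and 1842 and 1687 in mock IP and total RNA. Depth differed, with 78675 to 99881 monomer reads per library in mock IP and 41207 to 83163 in ORF2p RIP, and its part in these shares was not tested. For FAM in ORF1p RIP, 1 copy in P3H2 held 13.4% of the FAM reads (10.6% to 18.8% by library), the 10 most-read copies held 31.9%, and 60 copies held 50%. For FRAM in ORF2p RIP the leading copy, in PDE3A, held 6.07%, but the 10 most-read held 33.5% and 56 copies held 50%. In ORF2p RIP 1 FAM copy in C2orf69 held 7.95% of FAM reads, and in mock IP and total RNA a FAM copy in HELLS led with 2.45% and 3.11%.

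Single copies were tested in a fit over all 71437 repeat loci with enough reads, of which 355 were Alu monomers (151 FLAM_C, 106 FLAM_A, 55 FRAM and 43 FAM). These are 0.895% of the monomer copies and hold 26.2% of their reads. Of the 355, 160 (45.1%) would have failed the filter without ORF1p RIP, 55 without ORF2p RIP, 18 without mock IP and 25 without total RNA. Some copies needed more than 1 group and are counted under each, and 117 passed whichever group was left out. Copies that needed a group had to be high in it, so the counts here describe the tested copies and support nothing about the rest. A locus is called at an edgeR adjusted p under 0.05 and a change of at least 2-fold.

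In ORF1p RIP against mock IP, 220 of the 355 tested copies (62.0%) were called higher and 58 (16.3%) lower, where 36.6% and 35.5% of all tested loci were. Of the dimers, 48.5% of AluJ, 53.3% of AluS and 53.4% of AluY loci were called higher. In ORF2p RIP against mock IP 110 (31.0%) were called higher and 48 (13.5%) lower, against 24.6% and 14.3% of all loci, shares near the background. By subfamily that was 53 of 151 FLAM_C higher and 10 lower, 32 of 106 FLAM_A and 16, 15 of 55 FRAM and 9, and 10 of 43 FAM and 13. AluJ, AluS and AluY loci were called higher in 24.8%, 30.8% and 36.1% and lower in 10.9%, 7.55% and 5.08%. The 2 pull-downs gave 84 copies (23.7%) called higher in ORF2p RIP and 183 (51.5%) lower than in ORF1p RIP, against 41.1% and 30.7% of all loci. For AluJ, AluS and AluY the shares were 31.3%, 31.6% and 36.0% higher and 41.4%, 42.4% and 36.2% lower. In ORF1p RIP against total RNA 235 (66.2%) were higher and 56 (15.8%) lower, against 37.2% and 37.5% of all loci. AluJ, AluS and AluY loci were higher in 57.9%, 62.8% and 60.4% and lower in 21.8%, 20.1% and 23.5%. In ORF2p RIP against total RNA the monomer counts were 150 (42.3%) higher and 45 (12.7%) lower, against 27.8% and 21.1% of all loci. The shares of AluJ, AluS and AluY were 40.7%, 47.6% and 51.3% higher and 8.36%, 4.43% and 2.92% lower. Mock IP and total RNA differed least, with 22 monomer copies (6.2%) higher and 1 (0.282%) lower, against 5.8% and 2.13% of all loci. Of AluJ, AluS and AluY, 9.21%, 8.77% and 7.24% were higher and 0.348%, 0.495% and 1.40% lower. The monomer counts were 6 to 14 and 0 without any 1 of the mock IP libraries or total RNA replicates 3 to 6. They were 38 and 8 without total RNA replicate 1.

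The copy with the most reads of all lay in SNHG1, a long noncoding RNA that hosts small nucleolar RNAs. This FLAM_C copy (chr11:62852323-62852449, build hg38, plus strand, opposite to the host) was at 275, 249.6, 181 and 259 CPM in ORF1p RIP, 37.2, 34.9, 33.1 and 39.5 CPM in ORF2p RIP and 40.7, 33.7 and 36.1 CPM in mock IP. In total RNA it ran from 5.61 to 14.3 CPM with a median of 8.44. It was higher in ORF1p RIP than in mock IP by 2.71 ± 0.35 on the log2 scale (edgeR adjusted p = 7.93e-07), and ORF2p RIP overlapped mock IP. Without this copy and the most-read copies of the other subfamilies, FLAM_C as a whole was at 0.48 and no longer passed (adjusted p = 0.0809).

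The FAM copy in P3H2, the gene of a collagen prolyl hydroxylase, was at 130.4, 113, 207 and 143 CPM in ORF1p RIP and at 1.81, 1.48, 1.26 and 1.44 CPM in ORF2p RIP (chr3:189957544-189957695, opposite to the host). Mock IP had 9.83, 4.31 and 2.93 CPM, and total RNA ran from 2.14 to 5.49 CPM with a median of 3.23. ORF1p RIP lay above all other libraries, by 4.70 ± 0.48 against mock IP (edgeR adjusted p = 4.14e-08), and ORF2p RIP lay below mock IP, by -1.93 ± 0.42 (adjusted p = 0.00112). The other repeats in the span of P3H2 moved in the same directions but less, by 2.30 and -1.27.

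A second FAM copy high in ORF1p RIP lay in YWHAB (chr20:44907297-44907477, same strand), the gene of a 14-3-3 protein. It was at 93.8, 85.8, 57.8 and 81.3 CPM in ORF1p RIP and at 5.86, 5.89 and 6.18 CPM in mock IP (log2 change 3.74 ± 0.43, edgeR adjusted p = 2.05e-07). ORF2p RIP had 12.7, 9.10, 6.49 and 11 CPM, above mock IP in every library but not past the test (0.72 ± 0.38, adjusted p = 0.144). Total RNA ran from 2.46 to 7.34 CPM with a median of 3.78.

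The FLAM_A copy in AHCYL2, a relative of adenosylhomocysteinase, moved against its host (chr7:129429528-129429663, opposite strand). It was at 62.4, 51.6, 52.6 and 53.5 CPM in ORF1p RIP, 4.37, 5.65, 6.70 and 6.37 CPM in ORF2p RIP and 8.52, 10.1 and 7.67 CPM in mock IP, and in total RNA it ran from 0.756 to 3.31 CPM with a median of 1.004. The change from mock IP to ORF1p RIP was 2.65 ± 0.46 (edgeR adjusted p = 3.43e-05), while the other repeats of the AHCYL2 span were at -0.91 (adjusted p = 0.000448). Mock IP was also above total RNA, by 2.47 ± 0.39 (adjusted p = 0.00185).

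A FLAM_A copy in FIRRE was high in both pull-downs. This copy (chrX:131794355-131794480, opposite strand), in the gene of a long noncoding RNA of nuclear organisation, was at 44.2, 43.9, 52.2 and 39.3 CPM in ORF1p RIP, 52.8, 52, 48.5 and 42.4 CPM in ORF2p RIP and 12, 13.6 and 10.2 CPM in mock IP. Against mock IP it rose by 1.91 ± 0.32 and 2.03 ± 0.32 (edgeR adjusted p = 2.11e-05 and 4.87e-05), while the other repeats of FIRRE were at 0.19 and 0.70. In total RNA the FIRRE copy ran from 2.58 to 5.63 CPM with a median of 3.94, below mock IP throughout.

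Others were high in ORF2p RIP. The FLAM_C copy in PRKX (chrX:3607679-3607805), an X-linked protein kinase gene, was at 165, 87.5, 73.4 and 146 CPM in ORF2p RIP and 7.09, 5.24 and 8.41 CPM in mock IP, a change of 4.10 ± 0.41 (edgeR adjusted p = 4.63e-07). Its ORF1p RIP libraries were at 11, 10.1, 21.6 and 12.6 CPM, between the other groups. The FLAM_C copy in RBM41 (chrX:107064405-107064548, same strand), which encodes an RNA-binding protein, was at 87.1, 51, 53.4 and 64.7 CPM in ORF2p RIP, 2.94, 4.84, 6.95 and 5.63 CPM in ORF1p RIP and 2.97, 2.25 and 3.11 CPM in mock IP. The FLAM_A copy in HELLS (chr10:94606074-94606199, opposite strand), a chromatin remodeller, was at 41.5, 47.8, 43.1 and 35.5 CPM in ORF2p RIP, 8.78, 16, 8.35 and 11.4 CPM in ORF1p RIP and 12, 11.4 and 13.7 CPM in mock IP. ORF2p RIP was above mock IP by 4.53 ± 0.53 for the RBM41 copy and 1.76 ± 0.40 for the HELLS copy (edgeR adjusted p = 2.46e-06 and 0.0013), with the hosts' other repeats at 3.89 and 1.06. Total RNA ran from 4.89 to 7.62 CPM with a median of 5.52 for the PRKX copy, from 0.438 to 2.80 CPM with a median of 1.70 for the RBM41 copy and from 4.56 to 14.1 CPM with a median of 6.90 for the HELLS copy.

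The FRAM copy in PDE3A, a phosphodiesterase gene, was missing from one pull-down alone (chr12:20615020-20615202, opposite strand). It was at 0.533, 0.373, 0 and 0.114 CPM in ORF1p RIP, 65, 44.2, 49.9 and 49.3 CPM in ORF2p RIP and 46.3, 46.6 and 46.8 CPM in mock IP, and ran from 37.7 to 71.8 CPM with a median of 60.6 in total RNA. ORF1p RIP was lower than mock IP by a log2 change of -7.37 ± 0.50 (edgeR adjusted p = 2.29e-10), and the other repeats of PDE3A were at -6.20. A FLAM_A and a FRAM copy outside any gene span on the same chromosome (chr12:20756779-20756895 and chr12:20754852-20754949) fell with it, from 31.7 ± 1.66 CPM and 21.2 ± 0.690 CPM in mock IP to 0.143 ± 0.143 CPM and 0.220 ± 0.286 CPM in ORF1p RIP.

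**Figure D4:**
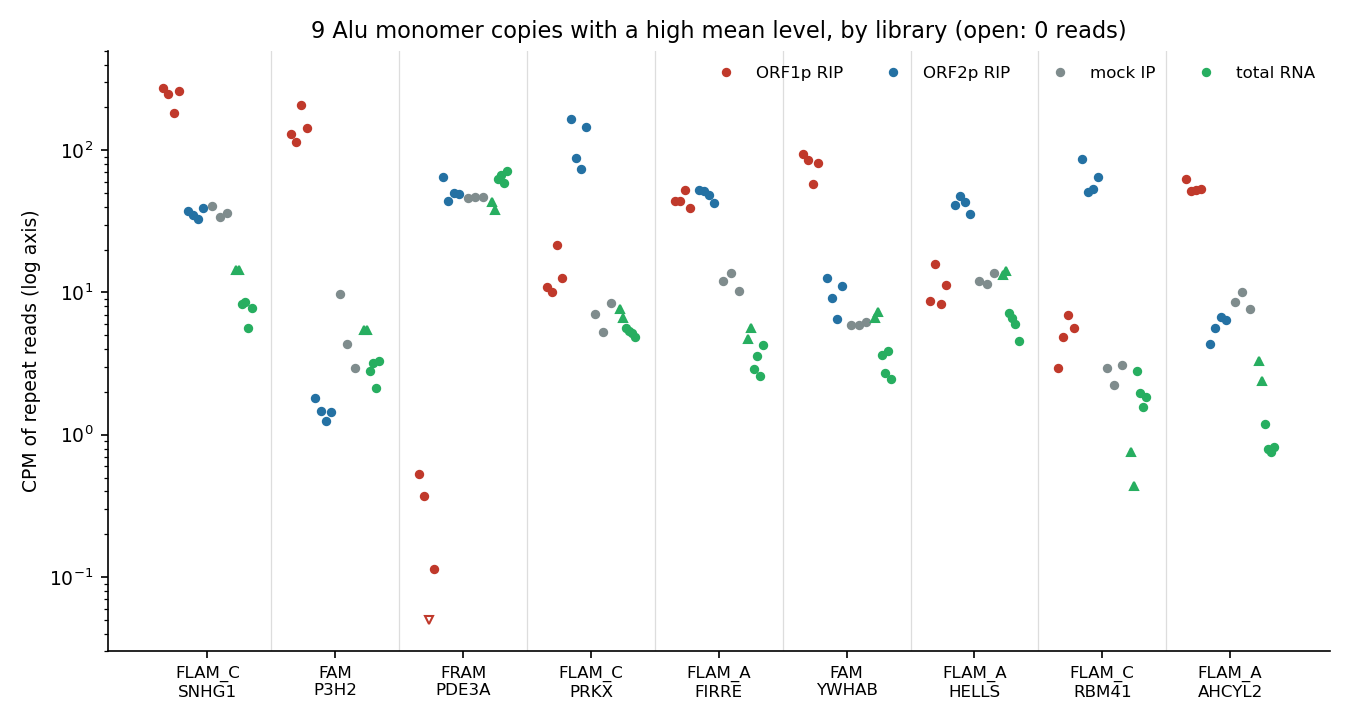
Alu monomer copies from the 10 with the most reads, 9 of them, each in every library of the 4 groups, on a log axis of CPM of repeat reads. The copies in SNHG1, P3H2, YWHAB and AHCYL2 are high in ORF1p RIP, those in PRKX, RBM41 and HELLS in ORF2p RIP, that in FIRRE in both, and the copy in PDE3A is at 0.533 CPM or below in ORF1p RIP.

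The 5 largest rises and 5 largest falls of each comparison were taken among called copies with a group mean of at least 5 CPM and no overlap between groups. They lay mostly in gene spans, as did 72.6% of all monomer copies and at least 285 of the 355 tested. In ORF1p RIP against mock IP the rises were a FRAM copy in the antisense RNA PPP1R12A-AS2, a FRAM copy where ADGRL3 and ADGRL3-AS1 overlap, 2 neighbouring copies in PM20D2, and a FLAM_C copy in AJUBA, an adaptor protein gene. The PPP1R12A-AS2 copy (chr12:79723096-79723176) was at 11.4 ± 0.695 CPM in ORF1p RIP and had 2 reads in all of mock IP, a ratio of 262 (95% counting interval 72.5 to 2164). The ADGRL3 copy (chr4:62075183-62075349) was at 19.1 ± 3.69 CPM against 0.102 ± 0.127 CPM (log2 change 7.36 ± 0.73, edgeR adjusted p = 2.53e-08). Reads of a gene and its antisense partner cannot be told apart here, because no source used here says whether counting used strand.

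The PM20D2 copies lie 1 base apart, so a single fragment can span both. The FLAM_C copy (chr6:89163345-89163481) was at 16.8 ± 5.87 CPM in ORF1p RIP and 0.126 ± 0.101 CPM in mock IP, and the FRAM copy (chr6:89163483-89163643) at 31 ± 11.5 CPM and 0.313 ± 0.120 CPM. The AJUBA copy (chr14:22973011-22973140) was at 14.2 ± 7.34 CPM against 0.127 ± 0.159 CPM, a log2 change of 6.68 ± 0.88 (edgeR adjusted p = 1.08e-06). Among the falls, 2 copies had no read in any ORF1p RIP library. With a floor of 3 reads per library, the FLAM_C copy in ZNF90 (chr19:20107491-20107598) was at least 15.9-fold higher in mock IP, and the FAM copy in HAS3, a hyaluronan synthase gene (chr16:69110404-69110583), at least 13.3-fold.

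The rises from mock IP to ORF2p RIP were FLAM_C copies in WBP2NL and RAB3B, a FLAM_A copy in VOPP1, a FAM copy in LYRM7, and a FRAM copy outside any gene span on the X chromosome (chrX:119982402-119982499). The last was at 51.8 ± 6.46 CPM in ORF2p RIP and 1.38 ± 0.281 CPM in mock IP (log2 change 5.21 ± 0.61, edgeR adjusted p = 2.33e-06). The RAB3B copy (chr1:51912426-51912554), in the gene of a small GTPase of vesicle transport, was at 32 ± 9.91 CPM against 0.748 ± 0.131 CPM. The LYRM7 copy (chr5:131202511-131202675), in a gene for the assembly of mitochondrial complex III, was at 12.5 ± 4.15 CPM against 0.454 ± 0.355 CPM. The 5 falls were smaller, from -2.90 ± 0.87 for the FLAM_A copy in SLC25A16 to -2.13 ± 0.35 for the FLAM_C copy in HNRNPD, which encodes an RNA-binding protein (edgeR adjusted p = 0.0108 and 7.21e-05). Copies in HAS3, PYM1 and ANKRD18CP lay between them. In the span of ANKRD18CP, a pseudogene, the other repeats went the other way (0.76).

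ORF2p RIP against ORF1p RIP gave copies seen in one pull-down and not in the other. The FLAM_C copy at chrX:84903547-84903679, outside any gene span, was at 19.8 ± 7.31 CPM in ORF2p RIP and had no read in ORF1p RIP, at least 52.3-fold higher. Copies in the noncoding RNAs LOC105375704 (FLAM_C) and LINC02882 (FRAM) were at least 36.4-fold and 13.2-fold higher in ORF2p RIP by the same floor. The FLAM_A copy at chrX:119986843-119986948 had 1 estimated read summed over ORF1p RIP, with at most 0.5 in any library. Counted as 1 whole read, this gives a ratio of 388 (95% counting interval 69.6 to 15319), an interval that takes no account of fractional reads. This copy lies near the FRAM copy of chrX named for ORF2p RIP against mock IP, which was the fifth rise here too. In the other direction the FLAM_C copy in ELOC, the gene of elongin C (chr8:73964515-73964649), was at 30.8 ± 6.69 CPM in ORF1p RIP and had no read in ORF2p RIP, at least 102-fold. The FAM copy in ELP2, an Elongator subunit gene (chr18:36137179-36137340), had 1 read in ORF2p RIP, a ratio of 366 (95% counting interval 65.6 to 14447). The PPP1R12A-AS2 copy, the AJUBA copy and a FLAM_C copy in XIST made up the rest of the falls.

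Against total RNA, the rises in ORF1p RIP were the copies in PPP1R12A-AS2 (at least 62.8-fold), XIST, AJUBA, USP3 and ST8SIA6. The FLAM_A copy in USP3, a deubiquitinase gene (chr15:63529065-63529164), was at 20.3 ± 1.68 CPM in ORF1p RIP against 0.0773 ± 0.0829 CPM (log2 change 7.79 ± 0.49, edgeR adjusted p = 7.31e-11). The falls were the copies in ZNF90 (at least 22.9-fold), LINC03077 (at least 17-fold) and PDE3A, the FLAM_A copy of chromosome 12 and a FAM copy at chr3:95008126-95008291. For ORF2p RIP the rises were led by a second copy in LYRM7, a FLAM_A (chr5:131204104-131204226) at 57.8 ± 7.89 CPM against 1.09 ± 0.304 CPM (log2 change 5.73 ± 0.29, edgeR adjusted p = 3.08e-11). A FRAM copy at chrX:126262207-126262353, outside gene spans, and those in WBP2NL, RBM41 and VOPP1 followed. The 5 falls ran from -2.39 ± 0.45 for the FAM copy of chromosome 3 to -1.25 ± 0.39 for a FRAM copy in BICD1, a dynein adaptor gene, with FRAM in CLINT1, FLAM_C in HNRNPD and FLAM_A in LINC03009 between (edgeR adjusted p at most 0.0102).

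Mock IP had 5 copies above total RNA by the same rule and none below. The FLAM_C copy in SHKBP1 (chr19:40577755-40577887, same strand) was at 16.4 ± 3.02 CPM in mock IP against 1.16 ± 1.26 CPM in total RNA (log2 change 3.77 ± 0.57, edgeR adjusted p = 0.00164). The others were FLAM_A in EP400, AHCYL2 and SLC25A16 and FAM in HAS3, with log2 changes of 2.86 to 2.20. The call for SLC25A16 was lost in most leave-one-out fits, and that for HAS3 without any 1 of the mock IP libraries or total RNA replicates 3 to 6.

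Called copies inside genes mostly had the sign of the other repeats of their host. For 285 tested copies in 266 gene spans, the log2 change of the copy was set against that of all non-monomer repeats in the same span. The choice of copies did not use these repeats. They were counted in the same libraries, and a fragment can span a copy and its neighbour. Pearson's r was 0.860 and Spearman's rho 0.786 for ORF1p RIP against mock IP, and 0.662 and 0.554 for ORF2p RIP against mock IP. For mock IP against total RNA they were 0.420 and 0.342. These are descriptions across copies, which share libraries and in part hosts. Of 225 called copies with a host value, 211 (93.8%) had the sign of their host in ORF1p RIP against mock IP, and 94 of 127 (74.0%) in ORF2p RIP against mock IP. For ORF2p RIP against ORF1p RIP it was 205 of 217 (94.5%). The same shares for dimeric Alu or other repeats were not computed, so it is not known whether these are particular to monomers. The host itself was called in the direction of the copy for 157 of the 225 in ORF1p RIP against mock IP, with 65 hosts not called, and for 43 of the 127 in ORF2p RIP against mock IP, with 81 not called. The copies moved further than their hosts: the median copy was at 1.95 and the median host at 0.83 in ORF1p RIP against mock IP, with a median difference of 0.68 within pairs. In ORF2p RIP against mock IP that difference was 0.27. Since copies high in ORF1p RIP passed the filter more often, these medians are no estimate for all copies. By strand, the median in ORF1p RIP against mock IP was 1.85 for 122 copies on the host's strand and 2.00 for 100 on the opposite one.

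**Figure D5:**
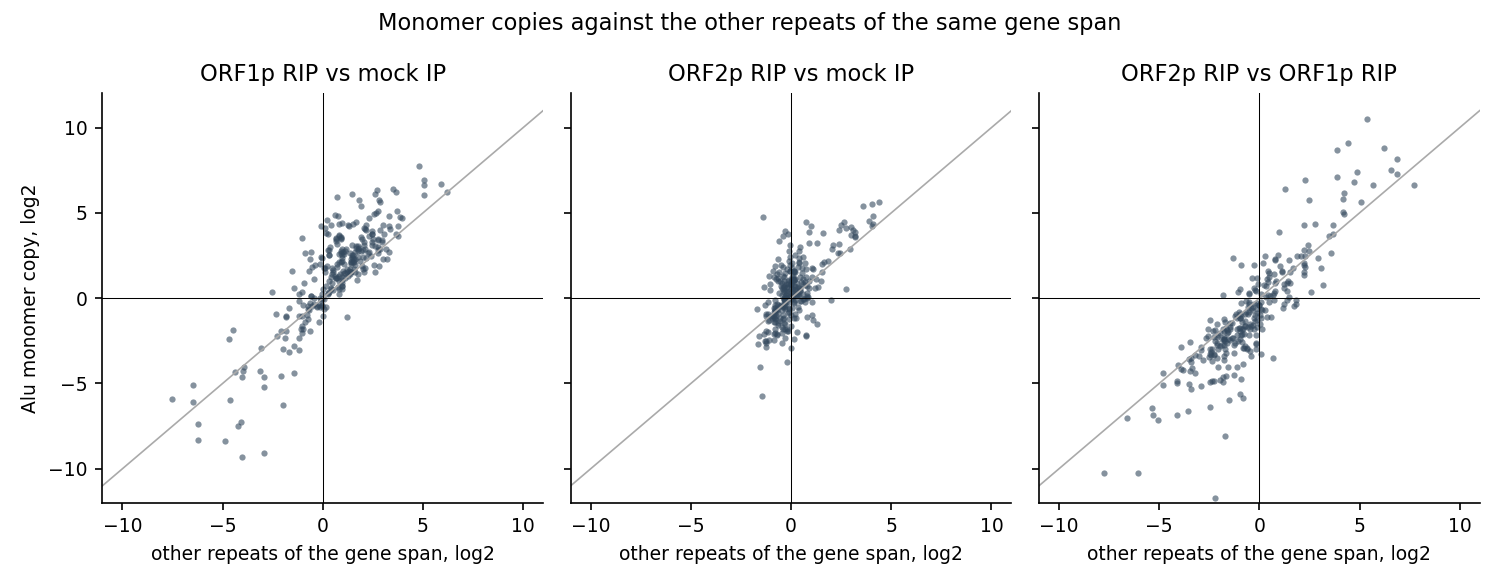
Log2 change of single monomer copies (vertical axis) against the log2 change of all other repeats in the same gene span (horizontal axis), for ORF1p RIP and ORF2p RIP against mock IP, with 285 copies in each panel. The points follow a rising band, tighter in ORF1p RIP (r = 0.860) than in ORF2p RIP (r = 0.662), with AHCYL2 among the copies away from it.

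Over all 39643 copies, with no filter, the share of reads on copies outside genes was lowest in each ORF1p RIP library and highest in each ORF2p RIP library. The 10846 copies outside gene spans took 5.66% ± 0.194 of monomer reads in ORF1p RIP (SD, n = 4), 13.3% ± 0.507 in ORF2p RIP (n = 4), 10.9% ± 0.0987 in mock IP (n = 3) and 11.8% ± 0.778 in total RNA (n = 6). The ranges were 5.48% to 5.90%, 12.8% to 14%, 10.8% to 11% and 10.7% to 12.6%. Per length, these copies had 0.344 ± 0.0332 CPM per kb in ORF1p RIP and 0.451 ± 0.0235 in mock IP, whereas copies in gene spans had 2.18 ± 0.132 and 1.40 ± 0.0868. A fit over loci outside gene spans alone was scaled on the reads of those loci, not on all repeat reads. It gave the other direction for ORF1p RIP against mock IP in 3 subfamilies, 0.49 for FLAM_A, 0.66 for FLAM_C and 0.48 for FAM, with FRAM at -0.11. FAM alone passed there (edgeR adjusted p = 0.00521). The direction for copies outside genes thus depends on the scaling. In the same fit FRAM was higher in ORF2p RIP than in ORF1p RIP, by 0.66 (edgeR adjusted p = 0.0232), the reverse of its sign over all copies.

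Copies in 3226 positions inside long noncoding RNA genes took 9.39% ± 0.312 of monomer reads in ORF1p RIP and 8.45% ± 0.346 in ORF2p RIP. In mock IP they took 6.27% ± 0.0370 and in total RNA 6.65% ± 0.860. The SNHG1 copy is among them and alone took 2.83% of monomer reads in ORF1p RIP (2.29% to 3.13% by library). It was at 241 ± 41.4 CPM there and at 36.8 ± 3.52 CPM in mock IP. The shares without it were not computed. Copies within 50 bases of a dimeric Alu took 12.4% ± 0.629 in ORF1p RIP, 13.1% ± 0.591 in ORF2p RIP, 15.7% ± 0.512 in mock IP and 13.1% ± 3.08 in total RNA. The 9972 copies over 1000 bases from any dimer took 35.7% ± 1.91, 31.5% ± 0.428, 28.8% ± 0.905 and 32.4% ± 4.43 in the same order. These shares were not tested.

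Divergence from the consensus, a rough guide to a copy's age, was set against the levels in ORF1p RIP and mock IP, with each subfamily cut into 3 bins of like size. The least diverged 1125 FAM copies (up to 17.4%) were at 2.49 ± 0.188 CPM per kb in ORF1p RIP and 1.13 ± 0.0954 in mock IP. The most diverged 1125 (from 20%) were at 2.65 ± 0.178 and 1.61 ± 0.0990. For FLAM_A the least diverged bin was at 2.08 ± 0.185 and 1.14 ± 0.0703, and the most diverged at 1.80 ± 0.105 and 1.43 ± 0.0445. FLAM_C was at 1.60 ± 0.106 and 0.933 ± 0.0811 in its least diverged bin and at 1.65 ± 0.154 and 1.16 ± 0.0650 in its most diverged one. In FAM and both left monomers the step from mock IP to ORF1p RIP was wider in the least than in the most diverged bin. In FRAM it was the other way, with 1.21 ± 0.0831 and 1.13 ± 0.0940 in the least diverged bin and 1.58 ± 0.107 and 1.15 ± 0.0705 in the most diverged one. In ORF2p RIP the least diverged FAM copies were at 0.998 ± 0.140 CPM per kb. The middle bins of single subfamilies are not given here. Over all monomers the ORF1p RIP mean exceeded the mock IP mean by a log2 of 0.75 in the least diverged bins. It did so by 0.43 in the middle bins and by 0.48 in the most diverged ones. With all copies included, the rise thus did not fall steadily with divergence. The differences between bins were not tested. The bins include the most-read copies. Those in SNHG1 and P3H2 lie in the most diverged bins, and those in YWHAB and AHCYL2 in the least diverged ones. The SNHG1 copy alone was at 241 ± 41.4 CPM in ORF1p RIP and 36.8 ± 3.52 CPM in mock IP. Values without these copies were not computed. Whether the order of the middle and most diverged bins rests on them was not tested.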

How the data were processed

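RNA was measured in 17 libraries of N2102Ep (4 after ORF1p RIP, 4 after ORF2p RIP, 3 after mock IP, 6 without a pull-down); per the labels' protocols, RNA from the affinity media and total RNA became cDNA after DNase treatment, with probes against human ribosomal RNA. The authors deposited a table of expected counts (estimated read counts) per repeat locus with its position; the unit was read from the values, which were not scaled and in part not whole. STAR and build hg38 are named per the submitters' processing notes, without a version. The counting program, its use of strand and its treatment of reads that match several copies are not given in the sources used here. A count on a repeat can therefore include reads shared among near-identical copies. Of the value columns, 17 matched the samples and 43 that matched none were not used.

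Counts were summed per subfamily, rounded and tested with edgeR 4.0.16 (quasi-likelihood, R 4.3.3, limma 3.58.1) over the 1074 of 1080 subfamilies that passed filterByExpr (minimum count 10), all 17 libraries in 1 fit, TMM factors 0.807 to 1.21, with Benjamini-Hochberg adjustment. Single loci (minimum count 50, 71437 tested) and the sums of non-monomer repeats per gene span (13457 tested) were fitted the same way. Gene spans are those of RefSeq GRCh38.p14, starts in the table were taken as counted from 0, and coordinates are printed from 1. The SE of a log2 change is that change over the root of edgeR's F statistic. Ratios were tested by exact two-sided permutation over libraries. Named copies are, per comparison, the 5 largest changes each way among called copies with a group mean of at least 5 CPM and no overlap of libraries, and the 10 copies with the highest mean of the 4 group means, 1 of which is not reported here. A fold against a group with no reads uses a floor of 3 reads per library; ratios with 1 to 3 reads carry 95% exact Poisson intervals, and floors and intervals cover counting error only. The members and lists were chosen with earlier results of these data known. Alternatives were library totals, DESeq2 1.42.0, other filters, a replicate block, each pair of groups alone, each total RNA series alone, copies outside gene spans, and leaving out the most-read copies or single libraries. The scripts were tested on simulated data. The replicate numbers, which come from the sample titles, were not taken as pairs. In their descriptions the total RNA libraries carry other numbers than in their titles. Deviations from the group mean of libraries with the same title number correlated between -0.4685 and 0.448. In total RNA these deviations include the split between series, so they cannot show whether libraries share a culture.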

Additional observations from a re-analysis of the deposited data

Results flagged for a closer look

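Among the named copies, the 4 subfamilies and the ratios, 153 groups of 4 to 6 libraries were examined for 1 library that stood far from the others, and 11 were found by Dixon's criterion, which chance meets in about 1 group of 20. No subfamily level and no ratio was among them. In ORF1p RIP the FLAM_A copy in AHCYL2 was highest in replicate 1, at 62.4 CPM against 51.6 to 53.5 in the others, and the FAM copy at chr3:95008126 had 0.107 CPM in replicate 1 and no read in the others. In ORF2p RIP replicate 3 the FLAM_C copy in PM20D2 was at 2.09 CPM against 0.343 to 0.426, the FAM copy in HAS3 was lowest at 0.105 CPM against 0.958 to 1.11, and the FLAM_A copy in LINC03077 was lowest at 1.57 CPM where the others were at 1.6. In ORF2p RIP replicate 4 the FRAM copy at chr12:20754852 was lowest at 12.5 CPM against 16.7 to 17.2, and the FAM copy in ELP2 had 0.0686 CPM, its only read in that group. In ORF2p RIP replicate 2 the FAM copy in LYRM7 was lowest at 6.36 CPM against 14.1 to 15.3, and in replicate 1 the FRAM copy in BICD1 was highest at 3.4 CPM against 2.47 to 2.62. In total RNA the FRAM copy in ADGRL3 was highest in replicate 6, at 0.307 CPM against 0.063 to 0.112, and the FRAM copy in PM20D2 was highest in replicate 1, at 0.468 CPM against 0.0558 to 0.205.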

How the results depend on the processing

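The cause of the changes given here was not tested, except that fewer copies pass a stricter filter and fewer libraries raise the smallest p. Of the 4 monomer subfamilies, 3 passed as higher in ORF1p RIP than in mock IP by edgeR at an adjusted p of 0.05; 1 passed with library totals, 1 over copies outside gene spans and 1 without the most-read copies (2 to 3 with single libraries left out), and 4, FRAM among them (adjusted p = 0.0446), in the fit of 2 groups alone. Library totals move the median of all subfamilies by -0.07 there, by -0.34 for ORF2p RIP against mock IP, and by -0.25, -0.20, -0.47 and -0.13 in the other comparisons. In ORF2p RIP against mock IP, 0 were lower; library totals gave 1 and the fit of 2 groups alone 1 (0 to 0 with single libraries left out). In ORF2p RIP against ORF1p RIP, 0 were higher, and copies outside gene spans gave 1, FRAM at 0.66; 3 were lower (2 to 3 with single libraries left out), against 4 with library totals and in the fit of 2 groups alone, and 2 over copies outside gene spans and without the most-read copies. Against total RNA, 4 were higher in ORF1p RIP (4 to 4). For ORF2p RIP 0 were higher and 0 lower; 1 was higher over copies outside gene spans, 1 without the most-read copies and 4 against series bl, and 1, FAM at -0.48, was lower against series b (higher 0 to 3 with single libraries left out). For mock IP 0 were higher, and 4 against series bl (0 to 4). With the replicate block FLAM_C in ORF1p RIP against total RNA was at 0.91, short of 2-fold. FRAM in ORF1p RIP against total RNA no longer passed with library totals (0.46), outside gene spans (0.23) or against series b. Below the threshold, 26 changes of sign were seen, among them all 4 subfamilies in mock IP against series b. Of the FLAM_C over FRAM comparisons, 4 passed; 0 did without the most-read copies and 2 outside gene spans, where ORF2p RIP against total RNA reversed to -0.36 (2 to 3 with single libraries left out). Monomers over AluJ gave 0 throughout the single-library omissions.

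Called copies depended on the filter. For a minimum count of 20 and of 100 in place of 50, ORF1p RIP against mock IP gave 507 and 101 higher and 235 and 23 lower (182 to 228 and 45 to 65 with single libraries left out). ORF2p RIP against mock IP gave 170 and 60 higher and 200 and 13 lower (85 to 112 and 33 to 53). ORF2p RIP against ORF1p RIP gave 241 and 36 higher and 567 and 81 lower (67 to 96 and 150 to 202). ORF1p RIP against total RNA gave 649 and 107 higher and 212 and 22 lower (201 to 261 and 44 to 63), and 32 lower with series bl. ORF2p RIP against total RNA gave 299 and 74 higher and 188 and 11 lower (119 to 159 and 32 to 54), and 21 lower with series bl. Mock IP against total RNA, 22 higher and 1 lower, gave 37 higher at 20, 12 and 0 at 100, 34 and 4 with DESeq2, 63 and 13 with series bl, 11 and 6 with series b, and 4 lower with library totals (6 to 38 and 0 to 8). Of 632 values of named copies under other settings, 615 kept direction and call, 13 lost it, 4 gained it and 0 reversed; with single libraries left out it was 1833, 21, 6 and 0.

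With the replicate number as a block, though it is not known whether the numbers pair the libraries, mock IP against total RNA had 3 called copies higher and 0 lower. The block moved no other count of calls by over 1.5 times.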
